A study of Mus musculus with 4 samples.

Results

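The genes described here are 37 enzymes, carriers and regulators of fatty acid and ketone metabolism, chosen by symbol. A gene counted as measured where the array had a probe set annotated with its symbol alone, and a gene with several was represented by its brightest on average. By this rule 34 of the 37 genes were measured, among 19938 genes in all. Acsl1, Acsl3 and Ucp2 were not analysed here, Acsl3 because its only annotated probe set carried several symbols.

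Total RNA of the hypothalamus came from male CDF1 mice, a cross of BALB/c and DBA/2, aged 10 to 11 weeks, on day 20 after a subcutaneous injection into the flank. C26 is a murine colon adenocarcinoma cell line that is widely used to produce cancer cachexia, a wasting of fat and muscle. Control mice had a sham injection of 0.2 ml Hank's Balanced Salt Solution, and their array held RNA pooled from 4 animals. The other arrays held RNA of mice injected with 500000 C26 cells (0.5M, pool of 4 animals), 1000000 (1M, pool of 3 animals) and 2000000 (2M, 1 animal, though its title says pooled). All groups were housed singly, on the same standard diet with free access to food. Each group is 1 array, so a difference between a tumour-bearing array and the control array has no replicate check. A pool gives no spread between animals, and the 2M values are those of 1 mouse.

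Cells build fatty acids from cytosolic acetyl-CoA, which acetyl-CoA carboxylase turns into malonyl-CoA for fatty acid synthase. Elongases then lengthen the chains in the endoplasmic reticulum and desaturases add double bonds, and in the brain much of this output goes into myelin and other membranes. Oxidation takes the opposite course: the carnitine shuttle carries acyl groups into mitochondria, where they are shortened step by step. The adult brain burns little fat compared with muscle or liver, but it takes up ketone bodies made by the liver in fasting and turns them back into acetyl-CoA. In the hypothalamus, malonyl-CoA and fatty acid oxidation have also been studied as signals of nutrient state in feeding circuits.

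The values are log2 levels made by the authors with RMA, a method that corrects background, aligns arrays and summarises the probes of a probe set. Pearson correlations between pairs of arrays were 0.984 to 0.994 across probe sets, and array medians were 6.72 to 6.77 log2. Defining hypothalamic genes were well measured, with 9 of 9 past the low-value filter described below, among them the orexin gene Hcrt at 11.46 log2 and the melanin-concentrating hormone gene Pmch at 11.40 log2 in control. The pituitary hormone gene Gh stood at 10.80 log2 at 0.5M, against 6.91 at 1M, 6.85 at 2M and 6.13 in control, and Prl at 7.80, against 4.50, 4.51 and 3.95 log2. Among the pituitary hormone genes measured, the 0.5M pool thus stood apart by Gh and Prl. Cga, Lhb, Fshb and Tshb, which encode subunits of other pituitary hormones, did not have their highest value in this pool. Lhb, for example, reached 7.42 log2 there, 7.46 in the 1M pool and 7.41 in the 2M animal. The control also stood apart: the 7 pituitary markers measured had medians of 0.32, 0.38 and 0.33 log2 from it at 0.5M, 1M and 2M. It lay below all tumour-bearing arrays for 6 of these 7, as for 6629 of all 19938 genes. For these markers too, a different tissue piece in the control pool and a difference with tumour cannot be told apart. Without the 0.5M pool 0 members were called either, with a lowest adjusted p of 0.267 by limma. Fat-cell markers were low, with 0 of 5 past the filter and a summed linear level of 216 to 263 on the tumour-bearing arrays and 240 in control.

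Across the whole set, members lay slightly below control, and the role groups with the lower medians were desaturation and elongation, ketone use and, at 1M and 2M, uptake, binding and activation. The 34 members had a median difference of -0.04 log2 at 0.5M, -0.02 at 1M and -0.11 at 2M. Among all 11963 genes whose mean over the arrays reached 6.59 log2, the 40th percentile of all genes, the medians were 0.01, 0.04 and 0.01 log2. Of the 34 members 32 passed this filter, and Lpl and Ppara did not. Fewer cells of a type and less RNA per cell cannot be told apart in RNA of whole tissue, here and in the results that follow.

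No member passed the test of tumour-bearing against control arrays. With limma, which fits each gene and borrows the spread from all genes, 0 of 32 members had an adjusted p under 0.05 when the 3 arrays of tumour-bearing mice were set against control, as had 0.0502% of all genes. At an unadjusted p under 0.05 there were 4 members, which is 12.5% of those tested against 10.8% of all genes, so this share is near the background. The 4 were Elovl5, Elovl7, Scd1 and Acsl6, each with a mean below control. By direction, 12.5% of members were lower, against 4.61% of all genes, and 0% were higher, against 6.19%. The residual spread in this test is that between cell numbers and pool sizes, with 2 degrees of freedom, and the lone control array is assumed to vary like the others.

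Position relative to the control showed more members below than the background had. The control value lay above all 3 tumour-bearing values for 15 of 32 members, or 46.9%, against 27.3% of all genes. It lay below all 3 for Mlycd and Cpt2 only, 6.25% of members against 33.4% of all genes. The 2M array held the lowest of the 4 values for 21 of 32 members, or 65.6%, against 21.8% of all genes. On the same arrays the 9 hypothalamic markers lay mostly the other way, with medians of 0.31 log2 (0.5M), 0.28 (1M) and 0.36 (2M) and a summed linear level of 12201, 11688 and 13310 against 9455 in control. Npy differed by 0.41, 0.20 and 1.41 log2, so the 2M sum leans on this gene. The control was below all tumour-bearing arrays for 7 of these 9 markers (77.8%, against 33.4% of all genes). It was above for 1 (11.1%, against 27.3%). By limma 5 markers were higher at an unadjusted p under 0.05 (55.6%, against 6.19% of all genes). Among them the oxytocin gene Oxt differed by 0.79, 0.81 and 0.62 log2 and the vasopressin gene Avp by 0.50, 0.56 and 0.55 log2. For these markers a different tissue piece in the control pool and a difference with tumour cannot be told apart, and their part in the members' lower values was not tested. The members' shares are descriptions, since members of 1 pathway are not independent and the differences share the control array.

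Differences of a single array from control were small. A difference of at least 0.5 log2, which is 1.41-fold, was found for 0 members at 0.5M, where 0.853% of all genes reached it, and for 0 members at 1M, where 3.77% did. At 2M 3 members reached it, 9.38% against 2.48% of all genes. All 3, Elovl7, Slc16a1 and Fabp5, were below control, a direction in which 1.25% of all genes reached that size. For scale, 95% of all genes lay between -0.41 and 0.40 log2 at 2M, and 5 members lay below that range and 0 above it.

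**Figure D1:**
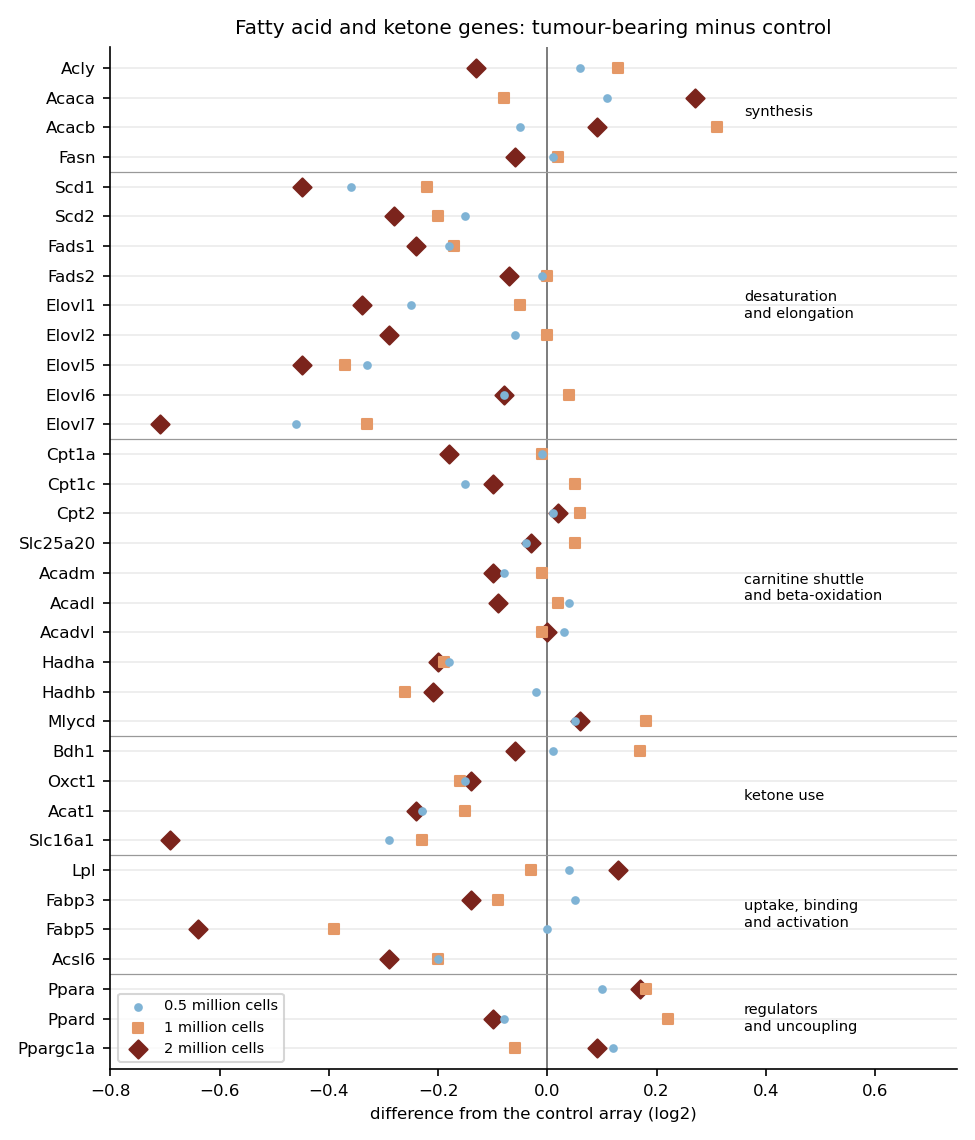
Difference of each tumour-bearing array from the control array (log2, horizontal axis) for the 34 measured members, grouped by role from top to bottom, with circles for 0.5M, squares for 1M and diamonds for 2M. Desaturation and elongation genes lie mostly left of 0, beta-oxidation genes lie near it, and the 3 points beyond -0.5 are the 2M values of Elovl7, Slc16a1 and Fabp5.

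Desaturation and elongation genes had the lowest median of the 6 role groups for the mean of the 3 arrays over measured members, though ketone use was lower at 0.5M (-0.19 log2) and uptake, binding and activation was lower among genes past the filter (-0.23 log2, 3 genes). Its 9 members stood at -0.18 log2 for 0.5M, -0.17 for 1M and -0.29 for 2M, and at -0.21 for the mean of the 3 arrays, with single genes between -0.50 and -0.03. The control lay above all tumour-bearing arrays for 6 of the 9 (66.7%, against 27.3% of all genes), namely Scd1, Scd2, Fads1, Elovl1, Elovl5 and Elovl7. None passed limma after adjustment, with 3 at an unadjusted p under 0.05 (33.3%, against 10.8% of all genes). All 3 were lower, as were 4.61% of all genes.

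Elovl7, which elongates long-chain saturated fatty acids, had 8.61 log2 in control and 8.16, 8.28 and 7.90 log2 at 0.5M, 1M and 2M. Its mean was 8.11 ± 0.19 log2 over the tumour-bearing arrays (SD, n = 3), against 8.61 log2 in control, a difference of -0.50 ± 0.15 log2 (SE, limma adjusted p = 0.375). All tumour-bearing values were lower than the control value, and the 2M animal stood lowest, at 61.1% of the control level. Elovl5, an elongase of polyunsaturated fatty acids, had 10.77 log2 in control and 10.44, 10.41 and 10.33 log2 with increasing cell number. The values descended in the order of cell number and differed little among tumour-bearing arrays, which averaged 10.39 ± 0.06 log2 (SD, n = 3) against 10.77 log2 in control. The limma difference was -0.38 ± 0.10 log2 (SE), with a 95% interval of -0.61 to -0.15 and an adjusted p of 0.375.

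Scd1, a stearoyl-CoA desaturase that makes oleate from stearate, had 11.83 log2 in control and 11.46, 11.61 and 11.38 log2 at 0.5M, 1M and 2M. The mean difference was -0.34 ± 0.12 log2 (SE, limma adjusted p = 0.397), and the 1M array lay nearest to control. Scd2, the desaturase that is prominent in brain, had 12.99 log2 in control and 12.84, 12.79 and 12.71 log2 with increasing cell number. Its control value also lay above all 3 tumour-bearing values, as did that of 27.3% of all genes. The difference of -0.21 ± 0.10 log2 (SE) had an adjusted p of 0.484 in limma. Fads1, a front-end desaturase of polyunsaturated fatty acids, was similar, with 11.70 log2 in control and 11.51, 11.52 and 11.46 log2 in the tumour-bearing arrays.

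Of the remaining members of this group, Elovl1 and Elovl2 differed from array to array, and Fads2 and Elovl6 lay near control. Elovl1, which makes very long saturated and monounsaturated chains, had 9.35 log2 in control and 9.10, 9.30 and 9.01 log2 at 0.5M, 1M and 2M, so that the 1M array was almost at the control level, and its mean difference of -0.22 log2 was close to that of Scd2. Elovl2, an elongase of polyunsaturated fatty acids, had 7.58 log2 in control and 7.52, 7.58 and 7.29 log2, a difference carried by the 2M animal. Fads2, which acts before Fads1 on polyunsaturated chains, differed by -0.01, 0.00 and -0.07 log2, and Elovl6, the elongase of palmitate, by -0.08, 0.04 and -0.08 log2. The limma intervals were -0.25 to 0.19 log2 for Fads2 and -0.28 to 0.19 log2 for Elovl6, so differences as large as those of Scd2 and Fads1 are within them.

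Promoters from the RefSeq table of build GRCm38.p6 are printed for 4 genes that lay below control in all tumour-bearing arrays, to show what their start regions hold: Elovl1 (chr4:118427843-118428142, plus strand, the first of 2 listed starts), Elovl5 (chr9:77917115-77917414, plus strand), Elovl7 (chr13:108214154-108214453, plus strand) and Slc16a1 (chr3:104638414-104638713, plus strand). Each run holds 250 bases before the transcription start and 50 after it, 5′ to 3′, and capitals mark matches on either strand to CCAAT (the NF-Y box), GGGCGG (the GC box), AGGTCA (a nuclear receptor element) or TGACG (the core of a CRE).
Elovl1: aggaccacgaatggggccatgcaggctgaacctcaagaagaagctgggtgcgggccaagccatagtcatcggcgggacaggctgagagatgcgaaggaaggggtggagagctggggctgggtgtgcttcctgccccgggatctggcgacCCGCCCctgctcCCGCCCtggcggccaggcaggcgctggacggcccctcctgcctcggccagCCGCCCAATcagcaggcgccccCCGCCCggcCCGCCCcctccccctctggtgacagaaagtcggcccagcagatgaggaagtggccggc
Elovl5: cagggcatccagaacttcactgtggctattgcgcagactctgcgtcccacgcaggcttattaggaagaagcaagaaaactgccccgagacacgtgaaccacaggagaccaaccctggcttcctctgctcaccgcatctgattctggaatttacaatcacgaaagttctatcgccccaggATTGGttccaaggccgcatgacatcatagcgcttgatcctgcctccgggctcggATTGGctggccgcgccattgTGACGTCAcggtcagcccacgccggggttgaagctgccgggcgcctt
Elovl7: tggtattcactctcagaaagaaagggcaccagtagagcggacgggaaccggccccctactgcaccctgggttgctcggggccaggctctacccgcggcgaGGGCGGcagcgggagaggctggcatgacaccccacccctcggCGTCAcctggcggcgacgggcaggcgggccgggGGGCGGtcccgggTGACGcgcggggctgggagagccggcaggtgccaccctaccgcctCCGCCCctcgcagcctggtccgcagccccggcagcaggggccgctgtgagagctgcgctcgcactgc
Slc16a1: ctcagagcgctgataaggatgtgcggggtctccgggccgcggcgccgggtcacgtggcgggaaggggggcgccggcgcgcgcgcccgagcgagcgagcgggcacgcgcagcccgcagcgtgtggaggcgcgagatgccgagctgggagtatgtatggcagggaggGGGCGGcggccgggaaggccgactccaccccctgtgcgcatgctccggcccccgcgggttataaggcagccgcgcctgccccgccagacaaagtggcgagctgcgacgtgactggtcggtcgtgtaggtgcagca
In Elovl1 a CCAAT match overlaps a GC box match, and in Elovl5 a pair of CRE cores on opposite strands overlap in TGACGTCA. Elovl7 held 3 GC boxes and 2 CRE cores, Elovl5 2 CCAAT matches, Elovl1 5 GC boxes, and Slc16a1 a single GC box. Of the 31 members with a listed promoter, 19 held GGGCGG (61.3%, against 46.3% of 17491 promoters of protein-coding genes), 11 CCAAT (35.5% against 39.0%), 8 TGACG (25.8% against 23.8%) and 8 AGGTCA (25.8% against 14.5%). The PPAR-type element of AGGTCA repeated after 1 base was in 0 of the 31 and in 0.0515% of all promoters. Such matches describe letters in the window and were not tested against the expression values.

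**Figure D2:**
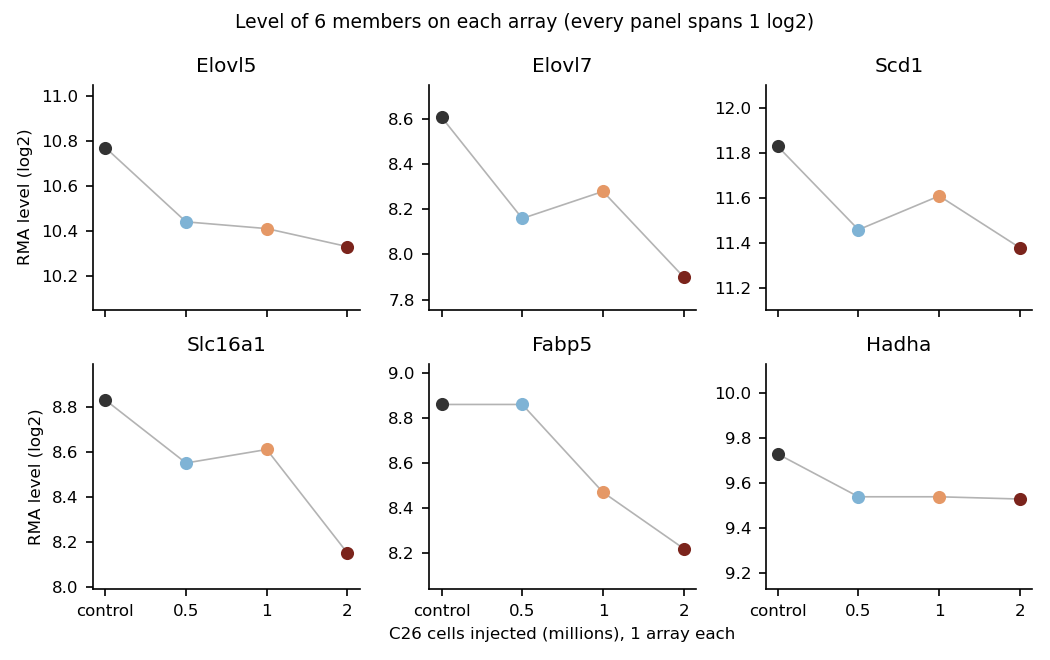
RMA level (log2, vertical axis) of Elovl5, Elovl7, Scd1, Slc16a1, Fabp5 and Hadha on the control, 0.5M, 1M and 2M arrays (horizontal axis, cells injected), 1 point per array, each panel spanning 1 log2. Elovl7, Scd1 and Slc16a1 are lower at 0.5M and 2M than at 1M, Fabp5 at 0.5M is at the control level, and Hadha has nearly equal values on the tumour-bearing arrays, all under control.

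Fatty acid synthesis genes lay near control by their median, with single genes to both sides. The 4 members had a median of 0.04 log2 at 0.5M, 0.07 at 1M and 0.01 at 2M. Of these, 0 lay wholly to either side of control, against 27.3% of all genes wholly below it and 33.4% wholly above. Fasn, fatty acid synthase, had 10.56 log2 in control and 10.57, 10.58 and 10.50 log2 in the tumour-bearing arrays, and the limma interval of its difference was -0.24 to 0.21 log2. Acly, ATP citrate lyase, which supplies cytosolic acetyl-CoA, had 9.03 log2 in control and 9.09, 9.16 and 8.90 log2, with the 2M array below control and the others above. The carboxylases also went both ways: Acaca, the cytosolic form that feeds synthesis, differed by 0.11, -0.08 and 0.27 log2, and Acacb, the mitochondrial-membrane form whose malonyl-CoA restrains the carnitine shuttle, by -0.05, 0.31 and 0.09 log2. A second probe set of Acaca gave 0.28, -0.05 and 0.44 log2, with the same order of arrays. It averaged 0.22 log2, against 0.10 for the probe set used, and its 2M value lay above the 0.40 log2 that bounds 95% of all genes. Which of these probe sets reads Acaca better was not tested. The limma intervals were wide, at -0.25 to 0.45 log2 for Acaca and -0.23 to 0.47 log2 for Acacb.

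Members of the carnitine shuttle and of beta-oxidation were near control as a group, with Hadha and Hadhb as its lowest members. The median of the 10 members was -0.02, 0.01 and -0.09 log2, and single means lay between -0.19 and 0.10 log2. Hadha and Hadhb encode the subunits of the mitochondrial trifunctional protein, which carries out the last steps of a round of long-chain oxidation. Hadha had 9.73 log2 in control and 9.54, 9.54 and 9.53 log2 at 0.5M, 1M and 2M, so the tumour-bearing arrays lay within a narrow span under the control. Its limma difference was -0.19 ± 0.09 log2 (SE), with an interval of -0.40 to 0.02 and an adjusted p of 0.479. Hadhb had 8.96 log2 in control and 8.93, 8.69 and 8.75 log2, with the 0.5M array at the control level. A second probe set of Hadhb gave the same order, at -0.03, -0.40 and -0.28 log2.

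The gatekeepers of the shuttle differed little. Cpt1a, the malonyl-CoA-sensitive transferase of the outer membrane, had 8.97 log2 in control and 8.95, 8.96 and 8.79 log2, with the 2M array lowest. Cpt1c, the brain isoform found in the endoplasmic reticulum, differed by -0.15, 0.05 and -0.10 log2, the inner-membrane transferase Cpt2 by 0.01, 0.06 and 0.02 log2, and the carnitine-acylcarnitine carrier Slc25a20 by -0.04, 0.05 and -0.03 log2. Mlycd, which breaks down malonyl-CoA, had 7.36 log2 in control and 7.41, 7.54 and 7.43 log2, all slightly above. The acyl-CoA dehydrogenases Acadm, Acadl and Acadvl, for medium, long and very long chains, averaged -0.06, -0.01 and 0.01 log2 from control over the tumour-bearing arrays. Their limma intervals reached from -0.29 to 0.16, from -0.25 to 0.23 and from -0.20 to 0.22 log2.

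Among ketone genes, 3 of 4 were below control on each tumour-bearing array (75%, against 27.3% of all genes). With only 4 genes that share 1 control array, this share is a description. The group medians were -0.19 log2 (0.5M), -0.15 (1M) and -0.19 (2M). Slc16a1 encodes the monocarboxylate transporter that moves lactate, pyruvate and ketone bodies across the blood-brain barrier and into glia. It had 8.83 log2 in control and 8.55, 8.61 and 8.15 log2 at 0.5M, 1M and 2M. All tumour-bearing arrays lay under the control, and the 2M animal, at 62.0% of the control level, was well under the pools. The limma difference was -0.40 ± 0.18 log2 (SE, adjusted p = 0.479).

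Enzymes that use ketone bodies showed smaller and more even differences. Oxct1, the CoA transferase that activates acetoacetate and sets the rate of ketone use, had 9.47 log2 in control and 9.32, 9.31 and 9.33 log2 in the tumour-bearing arrays. Acat1, the mitochondrial thiolase that splits acetoacetyl-CoA, had 9.45 log2 in control and 9.23, 9.31 and 9.21 log2. For both genes the tumour-bearing values lay close together and did not reach the control, with limma differences of -0.15 ± 0.09 log2 for Oxct1 (SE, adjusted p = 0.554) and -0.20 ± 0.09 log2 for Acat1 (SE, adjusted p = 0.479). Bdh1, the dehydrogenase that interconverts hydroxybutyrate and acetoacetate, went the other way at 1M, with 8.55 log2 in control and 8.56, 8.72 and 8.49 log2.

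Genes of fatty acid uptake, binding and activation were mixed. Fabp5, an intracellular carrier of long-chain fatty acids, had 8.86 log2 in control and 8.86, 8.47 and 8.22 log2 at 0.5M, 1M and 2M. The 0.5M pool was at the control level, and the values descended from there with cell number. The mean difference of -0.34 ± 0.22 log2 (SE) had a limma adjusted p of 0.595, and a second probe set gave -0.05, -0.46 and -0.57 log2, with the same order. Whether either probe set also binds related copies of the gene was not tested, nor was it for the probe sets of Acaca, Hadhb and Fabp3. Acsl6, the acyl-CoA synthetase that retains docosahexaenoate in mouse brain, had 9.75 log2 in control and 9.56, 9.55 and 9.46 log2, and its limma difference was -0.23 ± 0.09 log2 (SE, adjusted p = 0.46). Fabp3, the heart-type binding protein, differed by 0.05, -0.09 and -0.14 log2. Lpl, the lipase that frees fatty acids from circulating triglycerides, was below the filter value at 5.97 log2 in control and 6.01, 5.94 and 6.10 log2 in the tumour-bearing arrays.

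By their mean difference the regulators measured lay at or slightly above control, though Ppard and Ppargc1a lay to both sides of it on single arrays. Ppara, the nuclear receptor that activates fatty acid oxidation genes, was below the filter value, with 6.44 log2 in control and 6.55, 6.62 and 6.62 log2 at 0.5M, 1M and 2M, all above control. Ppard, the broadly expressed relative of Ppara, had 8.59 log2 in control and 8.51, 8.80 and 8.49 log2, to both sides of it. Ppargc1a, a coactivator of mitochondrial biogenesis, had 10.14 log2 in control and 10.26, 10.08 and 10.23 log2 by the probe set with the highest mean. Its other probe set disagreed, at -0.43, -1.05 and -0.47 log2 from a control level of 9.08 log2, and the mean of both stood at -0.30 log2, so the direction for Ppargc1a depends on the probe set.

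**Figure D3:**
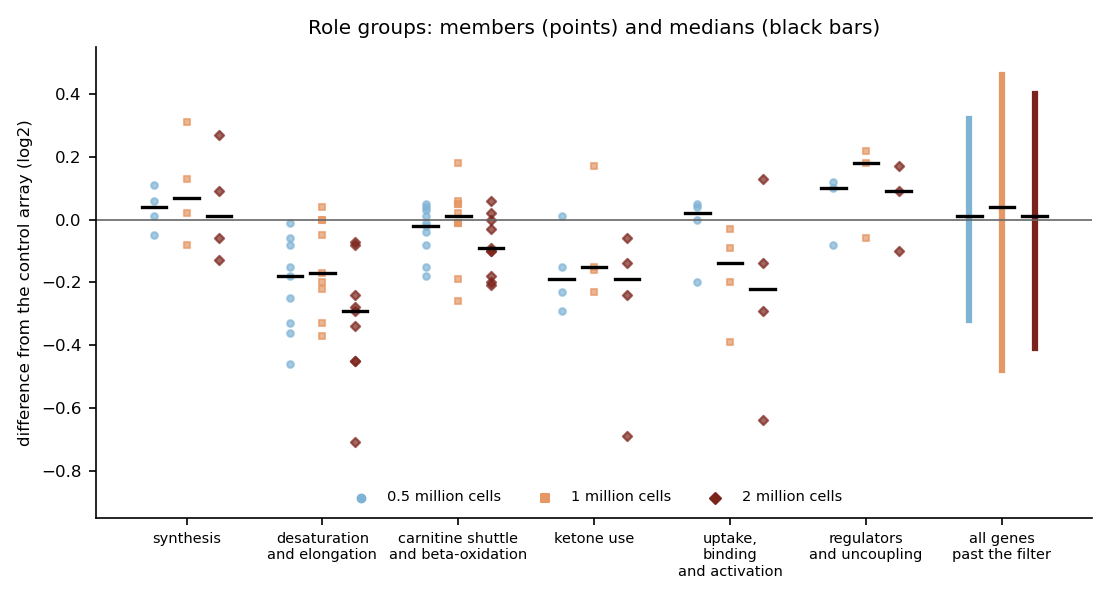
Difference from the control array (log2, vertical axis) of the measured members in 6 role groups, 1 point per member and array, with black bars for the median of each array and, at the right, bars spanning the central 95% of the 11963 genes past the filter. Medians of desaturation and elongation (-0.18, -0.17 and -0.29) and of ketone use (-0.19, -0.15 and -0.19) lie below 0 on each array. Those of synthesis (0.04, 0.07 and 0.01) lie near it.

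A linear trend with the number of cells injected, counting control as 0, gave no call. By limma 0 members passed, as did 0% of all genes, and 4 members had an unadjusted p under 0.05, 12.5% against 6.52% of all genes. These were Fabp5 at -0.35 ± 0.07 log2 per 1000000 cells (SE, limma adjusted p = 0.45), Slc16a1 at -0.32 ± 0.07 (SE, limma adjusted p = 0.504), Elovl7 at -0.31 ± 0.08 (SE, limma adjusted p = 0.637) and Elovl5 at -0.19 ± 0.08 (SE, limma adjusted p = 0.761). The single animal of 2M has most weight in this fit. Without the 1M array, Fabp5 (limma adjusted p = 0.0441) and Slc16a1 (limma adjusted p = 0.0453) passed, among 58 genes in all.

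Markers of myelin-forming oligodendrocytes, which make and consume much of the brain's very long chain lipid, were set beside the desaturation and elongation genes. Of 11 such markers 10 were measured, with medians of -0.15 log2 (0.5M), 0.08 (1M) and -0.37 (2M). Their summed linear level was 12762, 14854 and 11660 on these arrays and 13814 in control, while that of the 9 desaturation and elongation genes was 19677, 19969 and 18434 against 22357 in control. Ugt8a, the enzyme of galactosylceramide synthesis, was -0.69, -0.50 and -1.27 log2 from control, and the myelin gene Opalin -0.38, 0.02 and -1.72 log2. At 2M the myelin genes Mag, Cnp, Mog and Mal stood at -0.54, -0.43, -0.43 and -0.32 log2, the myelin basic protein gene Mbp at -0.14 log2 and Mobp at 0.53 log2. Of the 10 markers 8 were below control at 0.5M and 9 at 2M, while at 1M 7 were above it. Elovl7, Elovl1 and Scd1 were likewise lower at 0.5M and 2M than at 1M, though not above control there. Of the ketone genes Slc16a1 (-0.29, -0.23 and -0.69 log2), Acat1 and Bdh1 had this order too, and Oxct1 did not. Elovl5 and Scd2 had no such order, being lower at 1M than at 0.5M, and Fads1 was nearly equal on these arrays, at -0.18 and -0.17 log2. The part of oligodendrocytes in the differences of these genes was not tested.

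**Figure D4:**
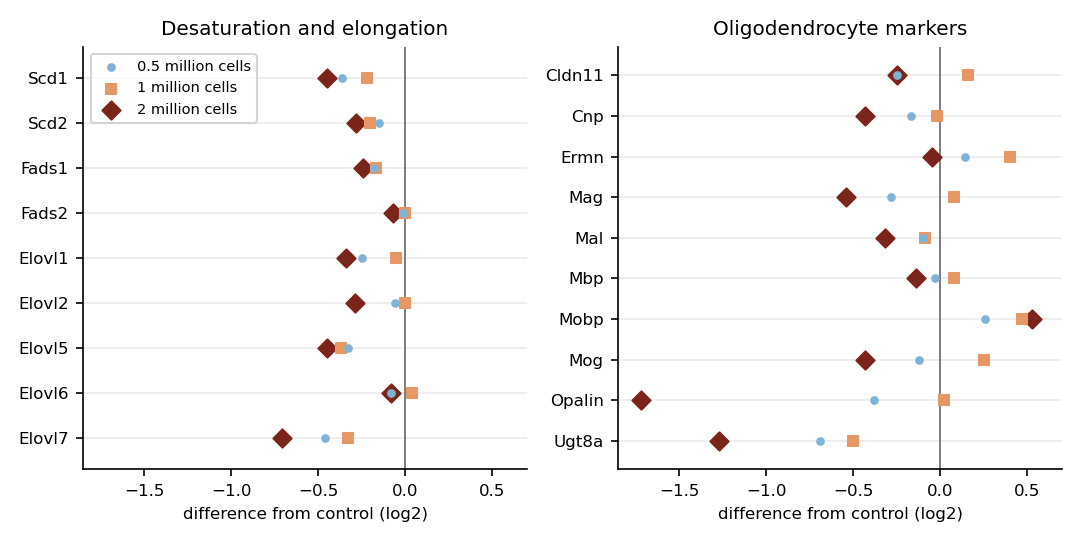
Difference from the control array (log2, horizontal axis) of the 9 desaturation and elongation genes (left) and 10 oligodendrocyte markers (right), with circles for 0.5M, squares for 1M and diamonds for 2M. Most diamonds lie left of 0 in both panels, whereas the squares of the markers lie on both sides of it, from -0.50 for Ugt8a to 0.47 for Mobp.

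Markers of other cell types were set beside the members in the same way. Astrocyte markers had a median of -0.06, 0.06 and -0.02 log2 with 10 of 10 measured, and their summed level was 17400 to 18662 on tumour-bearing arrays and 18069 in control. The water channel gene Aqp4 was the lowest of them, at -0.50, -0.33 and -0.65 log2. Slc16a1 is carried by endothelial cells and by glia. Endothelial markers had a median of 0.07, 0.13 and 0.10 log2, with 9 of 10 measured. Their summed level was 2687 to 2781 against 2585 in control. Among them Vwf, the von Willebrand factor gene, differed by 0.78, 0.71 and 0.76 log2, and the receptor gene Tek by -0.31, -0.32 and -0.33 log2. Microglial markers stood at -0.08, 0.00 and -0.25 log2, with a summed level of 1257 to 1568 against 1506 in control. Red cell markers, with 2 of 5 measured, had medians of 0.55, 0.61 and 0.52 log2, and the haem synthesis gene Alas2 differed by 0.94, 0.83 and 0.79 log2. Medians were 0.01, -0.04 and -0.01 log2 for neurons, -0.02, 0.09 and -0.07 log2 for tanycytes and ependyma, and -0.01, -0.09 and -0.03 log2 for choroid plexus. The part of these cells in the members' differences was not tested.

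Beyond the members, 9 further lists of 131 genes covered neighbouring steps of the pathway, and 122 genes were measured. Of the 103 past the filter 0 passed limma in the tumour comparison, with 20 at an unadjusted p under 0.05 (19.4%, against 10.8% of all genes). Of these 14 were lower (13.6%, against 4.61% of all genes) and 6 higher (5.83%, against 6.19%). The control was above all tumour-bearing arrays for 38 of the 103 (36.9%, against 27.3% of all genes) and below for 33 (32.0%, against 33.4%), and counts for single lists below are read against these shares of all genes. Their median differed from control by -0.02, 0.04 and -0.03 log2. Genes were named from these lists by the size of their mean difference, so their values are descriptions.

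Partner enzymes of chain elongation and related genes had a median of -0.11 log2 for the mean difference. Hacd1 and Hacd3, dehydratases of the elongation cycle, averaged -0.50 and -0.22 log2, and Hsd17b12, its ketoacyl-CoA reductase, -0.34 log2, with all tumour-bearing values under the control for each. Of the 16 genes of this list past the filter, 9 had the control above all tumour-bearing arrays (56.2%, against 27.3% of all genes) and 3 below (18.8%, against 33.4%), with 2 lower at an unadjusted p under 0.05 by limma (12.5%, against 4.61%). Mcat, of mitochondrial fatty acid synthesis, was 0.21 log2 above control.

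Peroxisomal genes had a median of -0.08 log2. Abcd2, an importer of very long chain acyl-CoA, had 8.78 log2 in control and 8.45, 8.46 and 8.26 log2 at 0.5M, 1M and 2M. Abcd3, a related peroxisomal importer, averaged -0.28 log2, Hsd17b4, the multifunctional enzyme of peroxisomal oxidation, -0.26 log2 and Pex11a, a factor of peroxisome proliferation, -0.19 log2. Of 11 genes past the filter the control was above all tumour-bearing arrays for 6 (54.5%, against 27.3% of all genes) and below for 2 (18.2%, against 33.4%), and 3 were lower at an unadjusted p under 0.05 by limma (27.3%, against 4.61%).

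In mitochondria, the other oxidation genes split. Etfa, a subunit of the electron carrier that accepts electrons from acyl-CoA dehydrogenases, had 8.25 log2 in control and 7.90, 7.89 and 7.84 log2 in the tumour-bearing arrays, while Crat, carnitine acetyltransferase, had 9.26 log2 in control and 9.47, 9.64 and 9.55 log2. Acaa2 and Acads averaged 0.21 and 0.20 log2 above control. Of 15 genes past the filter the control lay above all tumour-bearing arrays for 5 (33.3%, against 27.3% of all genes) and below for 6 (40%, against 33.4%), both near the shares of all genes.

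Lipolysis and targets of PPAR receptors held the genes of these lists with the highest mean differences. Plin4, a lipid droplet coat protein gene, had 6.69 log2 in control and 7.88, 8.15 and 8.30 log2 at 0.5M, 1M and 2M, a limma difference of 1.42 ± 0.16 log2 (SE, adjusted p = 0.119). Pnpla2, adipose triglyceride lipase, averaged 0.32 log2 above control, Lipa, the lysosomal acid lipase, -0.25 log2 and Hilpda, an inhibitor of Pnpla2 that was below the filter value, -0.23 log2. Pdk4, which restrains pyruvate oxidation, had 8.73 log2 in control and 9.13, 9.22 and 9.40 log2 at 0.5M, 1M and 2M, so its values ascended with cell number. Angptl4, an inhibitor of lipoprotein lipase, averaged 0.44 log2, Txnip, a regulator of glucose uptake, 0.37 log2 and Fgf21, below the filter value, 0.46 log2 above control. Of only 6 targets past the filter, 3 had the control below all tumour-bearing arrays (50%, against 33.4% of all genes) and 1 above (16.7%, against 27.3%). In the list of triglyceride storage and lipolysis these were 5 of 13 (38.5%) and 3 of 13 (23.1%), near the shares of all genes. At an unadjusted p under 0.05 by limma, 3 of the 6 targets were higher (50%, against 6.19% of all genes) and 1 lower (16.7%, against 4.61%). In the list of triglyceride storage and lipolysis 2 of 13 were higher (15.4%) and 0 lower.

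Controllers of lipogenesis lay to both sides of control. Srebf1, the transcription factor of fatty acid synthesis genes, had 8.43 log2 in control and 8.59, 8.89 and 8.67 log2 in the tumour-bearing arrays, all above it. Insig1 and Insig2, which retain SREBP proteins in the endoplasmic reticulum, averaged -0.24 and -0.38 log2, and Rxra, the partner receptor of PPAR and LXR, 0.24 log2. Of 12 genes past the filter the control lay below all tumour-bearing arrays for 7 (58.3%, against 33.4% of all genes) and above for 2 (16.7%, against 27.3%), while the 2 at an unadjusted p under 0.05 by limma were lower. In the transport and activation list Fabp7, a brain binding protein of astrocytes and tanycytes, differed by -0.70, -0.72 and -1.78 log2, the acetyl-CoA synthetase gene Acss2 by -0.24, -0.25 and -0.53 log2, and Acsl4, a synthetase for arachidonate, by -0.24, -0.51 and -0.27 log2. Slc27a6, a low-level transporter gene below the filter value, averaged 0.30 log2 above control. Of 11 genes of that list past the filter the control was above all tumour-bearing arrays for 5 (45.5%, against 27.3% of all genes) and below for 1 (9.09%, against 33.4%).

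Further monocarboxylate and ketone genes were few. Slc16a6 and Slc16a7, relatives of Slc16a1, averaged -0.31 and -0.17 log2 from control, Aacs, the cytosolic acetoacetyl-CoA synthetase, -0.14 log2 and Bdh2, the cytosolic hydroxybutyrate dehydrogenase, 0.27 log2. All 6 measured genes passed the filter, and the control was above all tumour-bearing arrays for 3 (50%, against 27.3% of all genes) and below for 2 (33.3%, against 33.4%).

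**Figure D5:**
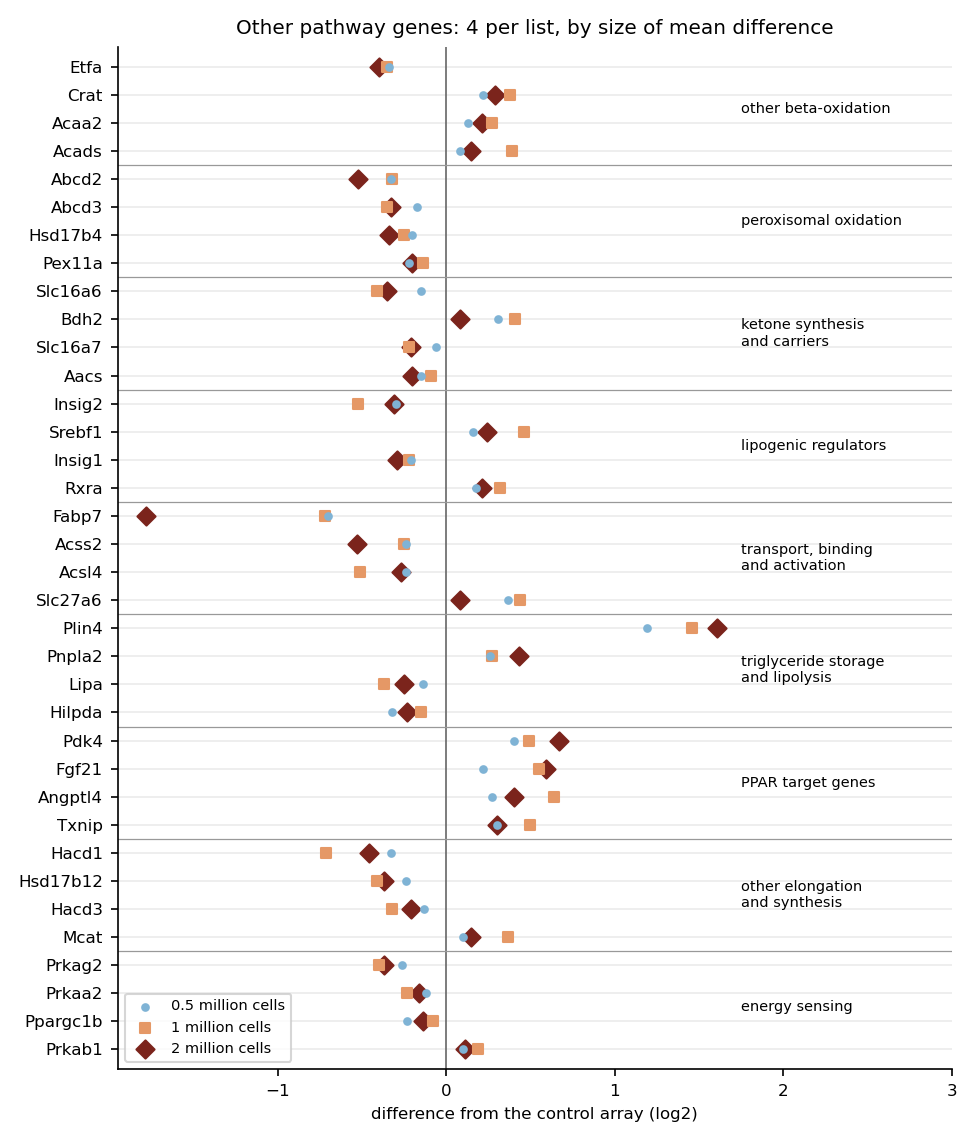
Difference of each tumour-bearing array from the control array (log2, horizontal axis) for the 4 genes of each of 9 further lists with the largest mean difference, with circles for 0.5M, squares for 1M and diamonds for 2M. Plin4 lies farthest right, at 1.19 to 1.61, and Fabp7 farthest left, at -1.78 for 2M.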

How the data were processed

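Hypothalamic RNA of 4 groups was measured on 1 array each. The deposited values are log2 expression per probe set. The submitters' processing notes name RMA as the tool the authors used, without its version or which arrays were normalized together. RMA aligns arrays, so a change common to all transcripts would not be seen. Of 35556 probe sets 21789 carried 1 symbol in the platform annotation, 1621 several and 12146 were unnamed here. Genes were tested if their mean reached the 40th percentile. Two-sided tests used limma 3.58.1 in R 4.3.3 (lmFit, eBayes, Benjamini-Hochberg over 11963 genes, threshold 0.05) for the 3 tumour-bearing arrays against control and for a trend with cell number. The fit was tested on simulated data with changes larger than any member's difference, so this says nothing about differences of the size reported. The number of arrays limits the precision. Samples were grouped by their treatment label. Named were all measured members, and from each further list the 4 genes with the largest mean difference. The members and lists were chosen with earlier results of these data known. All 3 differences share the control array. Promoters are RefSeq sequences, 1 per gene. Other values came from pandas 2.3.3 and numpy 2.4.6 in Python 3.11.15, and plots from matplotlib 3.10.9. Alternatives were other normalizations, probe-set rules, filters, thresholds and arrays left out. P-values measure only the spread between these arrays.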

Additional observations from a re-analysis of the deposited data

How the results depend on the processing

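No paired analysis was possible because each group has 1 array. In the tumour comparison 0 members were called by limma under each of the 9 alternatives run, with lowest adjusted p-values of members from 0.267 to 0.764. In the trend, leaving out 1 array in turn gave 0 to 2 called members. The 2 were Fabp5 and Slc16a1 without the 1M array (adjusted p = 0.0441 and 0.0453, limma), where 58 genes were called in all, and the cause was not tested. Without the 0.5M array 38 genes and 0 members were called. The count of members with the control below all tumour-bearing arrays was 2, and 3 to 6 with 1 array left out, since fewer arrays make the condition easier to meet. With the control above, the count was 15, and 15 to 21 with 1 array left out. The shares of all genes with 1 array left out are not given here. The median of the synthesis genes was 0.06 log2, and -0.00 to 0.06 with 1 array left out. For the regulators it was 0.05 log2, and 0.06 to 0.11. With all probe sets of a gene averaged, 1 member, Ppargc1a, was at least 0.5 log2 from control at 1M. At a threshold of 0.3 log2 the counts were 3, 4 and 6 members at 0.5M, 1M and 2M, and at 1 log2 there were 0 at 2M. Within 0.3 log2 of control on all 3 arrays lay 78.1% of members against 75.5% of all genes, so at this threshold members were near the background. Of 34 single genes, the sign of the mean difference turned for 1 with cyclic loess (Lpl), for 1 with averaged probe sets (Ppargc1a) and for 3 at most with an array left out, each within 0.1 log2 of control in both settings except Ppargc1a.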

Other observations

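Genes that sense cellular energy were close to control as a group, with a median of -0.01, 0.09 and 0.00 log2 at 0.5M, 1M and 2M over 14 measured genes, 4 with the control above all tumour-bearing arrays (28.6%, against 27.3% of all genes) and 4 below (28.6%, against 33.4%). Prkag2, a regulatory subunit of AMP-activated protein kinase, had 9.66 log2 in control and 9.40, 9.26 and 9.29 log2 in the tumour-bearing arrays, a limma difference of -0.35 ± 0.10 log2 (SE, adjusted p = 0.375). The catalytic subunit gene Prkaa2 averaged -0.17 log2, the subunit gene Prkab1 0.13 log2 and Ppargc1b, a relative of Ppargc1a, -0.15 log2. By limma 0 of the 14 passed after adjustment and 1 had an unadjusted p under 0.05.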
